A study of Mus musculus with 6 samples.

Results

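The stefin A genes are a cluster of protease inhibitor genes on mouse chromosome 16. Its 7 members were Stfa1, Stfa2, Stfa2l1, Stfa3, BC100530, BC117090 and Gm5483, out of 54532 genes in the table. They were chosen by name, with earlier results of these data known. All 7 passed the minimum of a mean FPKM of 0.1 (fragments of a gene, scaled to its length and to the size of the library), as did 14807 genes in all. The data were 6 RNA sequencing libraries of neutrophils from the bone marrow of C57BL/6J mice, 3 from wild-type (WT) mice, replicates 1 to 3, and 3 from progranulin knockout (PGRN KO) mice, replicates 4 to 6. Cells held on anti-Ly-6G magnetic beads were cultured for 2 h, and all 6 cultures then met live Candida albicans, a yeast that causes invasive fungal infection, for 6 h. There was no unchallenged library, so every value below is a level after challenge. WT and PGRN KO mice came from different suppliers, so genotype and source cannot be told apart, and the sources used here do not tie an age to the donors of these cells, beyond matching by age and sex, or say how many mice gave cells to a culture. Because separate animals are not stated, p-values measure the spread between these libraries, which may be technical.

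Stefins are small cytosolic members of the cystatin superfamily. They block papain-like cysteine proteases, among them cathepsins B, H, L and S, by wedging a short loop of the Gln-x-Val-x-Gly type into the active site, and are thought to guard the cell against lysosomal proteases that leak into the cytosol. Humans have a single stefin A gene, CSTA, whereas mice have an expanded set of close copies, several of which are transcribed in neutrophils and their bone marrow precursors. Cathepsin C is itself a cysteine protease and activates the serine proteases of neutrophil granules. Progranulin, encoded by Grn, is a secreted glycoprotein that is cut into granulins in the lysosome.

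The members differ in the codons of the loop that meets the protease. The stretch that codes for it and its flanks is therefore shown for each member, from the GENCODE M21 transcripts on GRCm38. The 5 codons of the loop are in capitals.
Stfa2: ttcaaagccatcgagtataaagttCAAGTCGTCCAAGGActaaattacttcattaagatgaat
Stfa2l1: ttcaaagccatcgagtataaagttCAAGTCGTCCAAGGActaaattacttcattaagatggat
Stfa1: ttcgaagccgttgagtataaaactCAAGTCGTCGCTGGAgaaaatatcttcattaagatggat
Gm5483: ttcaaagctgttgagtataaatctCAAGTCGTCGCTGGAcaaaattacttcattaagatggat
Stfa3: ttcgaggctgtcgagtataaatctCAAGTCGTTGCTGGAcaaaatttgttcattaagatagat
BC100530: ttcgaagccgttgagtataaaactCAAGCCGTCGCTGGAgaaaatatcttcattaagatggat
BC117090: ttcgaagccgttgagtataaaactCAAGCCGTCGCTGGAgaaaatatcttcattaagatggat
The loop codons fell into 4 versions among the 7 genes. Positions are counted from 1 at the first capital base, and Stfa1 is the reference. Gm5483 had the same 15 bases as Stfa1, and Stfa3 differed from them by C9T. That change turns the codon GTC into GTT, and both code for valine, so it does not alter the loop peptide. BC100530 and BC117090 shared T5C. Stfa2 and Stfa2l1 shared G10C, C11A and T12A. Over the whole coding sequence, of 291 to 312 bases, the 21 pairs of members were 73.4% (Stfa1 and Stfa2l1) to 98.0% (Stfa1 and BC100530) identical, with a median of 79.5%. Stfa2 and Stfa2l1 were 96.5% identical, and BC100530 and BC117090 were 95.2% identical. Stefin B, encoded by Cstb on another chromosome, was 52.2% to 61.8% identical to them.

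**Figure D1:**
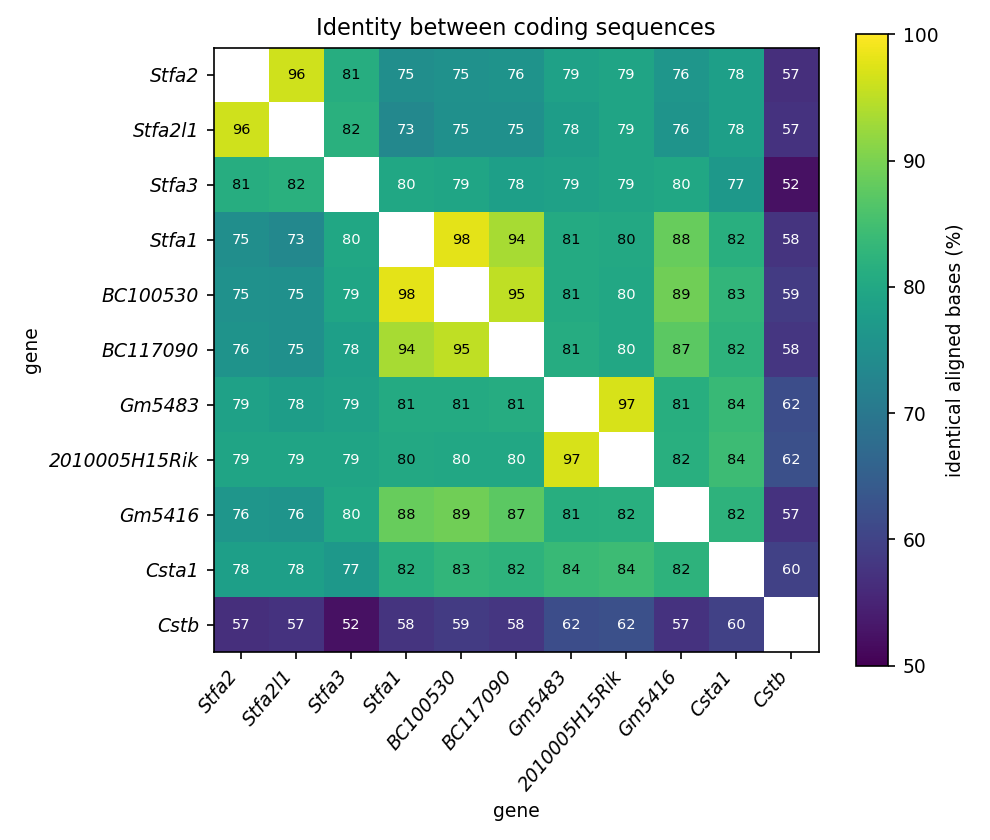
Identity between coding sequences of the stefin A genes, 3 neighbouring genes of the family (2010005H15Rik, Gm5416 and Csta1) and Cstb, with genes on both axes and the percent of aligned bases that were identical as colour and number. Close pairs stand out, with 98.0% for Stfa1 and BC100530 and 96.5% for Stfa2 and Stfa2l1, while the row of Cstb is uniformly low.

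The close copies bear on the counts. No stretch of 150 bases, the read length, was shared by a member's transcripts with another gene. Of stretches of 75 bases, 25.6% of those of BC100530, 20.4% of BC117090, 9.15% of Stfa1, 8.3% of Gm5483, 7.83% of Stfa2l1 and 5.79% of Stfa2 were shared, and none of Stfa3. The 154 shared stretches of Gm5483 were not all due to a close copy. They were held by 65 other genes, of which only 2010005H15Rik, with 80 stretches shared with Gm5483, is of the cluster. The longest run in common was 138 bases for BC100530 with BC117090, 134 for Gm5483 with its neighbour 2010005H15Rik, 128 for Stfa1 with BC100530 and 97 for Stfa2 with Stfa2l1. The sources used here do not say how reads were split between such copies, so levels within these pairs are uncertain, and Stfa3 is the member with no such overlap at 50 or 75 bases.

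The upstream sequences show what else the copies share. Of the 7 members, 6 had an entry among the RefSeq promoters (GRCm38.p6, 250 bases before to 50 after the gene's start), where Gm5483 is called Cstdc4 and BC100530 Cstdc5. BC117090 had none. The 120 bases before the start are shown for the most abundant member by FPKM, Stfa2l1 (chr16:36156691-36156810, plus strand), for Gm5483 (chr16:36184092-36184211, plus strand) and for Stfa3 (chr16:36455393-36455512, minus strand). Capitals mark the stretches of at least 10 bases that all 6 promoters held. The stretch nearest the start, GATCATTTCTTCT, runs past the window in Stfa2l1 and Stfa3 and lies wholly beyond it in Gm5483.
Stfa2l1: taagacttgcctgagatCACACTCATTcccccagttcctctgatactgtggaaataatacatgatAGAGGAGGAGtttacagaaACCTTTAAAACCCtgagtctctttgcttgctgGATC
Gm5483: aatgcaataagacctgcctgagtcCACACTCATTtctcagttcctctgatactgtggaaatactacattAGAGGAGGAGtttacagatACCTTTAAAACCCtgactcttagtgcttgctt
Stfa3: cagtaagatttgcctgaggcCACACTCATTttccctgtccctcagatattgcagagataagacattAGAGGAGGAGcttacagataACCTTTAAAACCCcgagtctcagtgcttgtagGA
The stretch ACCTTTAAAACCC was in all 6 promoters and in 9 of 32851 promoters overall (0.0274%), GATCATTTCTTCT in 10 (0.0304%), CACACTCATT in 37 (0.113%) and AGAGGAGGAG in 337 (1.03%), each searched on both strands. ACCTTTAAAACCC began 32 to 36 bases before the start in 5 of the 6. In BC100530 it began 12 bases before. The motif TATAAA was in none of the 6 and in 13.6% of all promoters. GAGGAA was in 6 of 6 against 28.3% of all, and TTNNGNAA in 5 of 6 against 40.7%, with Stfa3 the exception. Stfa2l1 and Stfa3 were 81.1% identical over their promoters, and Stfa2 and Stfa2l1 were 90.5% identical. The stretches in capitals were picked because all 6 promoters held them, and those promoters are counted in the totals. Their rarity is therefore a description and not a test. These are matches of letters, and no binding was measured.

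Grn was measured first, as a check of the labels. WT libraries had 168.4, 161.3 and 166.1 FPKM of Grn, and PGRN KO libraries 0.242, 0.206 and 0.747. The groups were far apart, with a log2 fold change of -6.91 (SE 0.14, limma adjusted p = 1.05e-05). Every fold change here is PGRN KO minus WT on the scale of log2(FPKM + 1), which understates the change of genes near 0.

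Stefin A transcripts were higher in PGRN KO than in WT neutrophils after the challenge. The FPKM of the 7 members summed to 233.5, 212.3 and 247.3 in WT libraries and to 378.4, 380.9 and 416.6 in PGRN KO libraries, or 231.0 ± 17.6 and 392.0 ± 21.4 (SD, n = 3 each). That is 1.70 times as much, with every PGRN KO library above every WT library. Of the 7 genes, 6 rose and none fell at an adjusted p under 0.05, against 7.94% of all tested genes that rose, 9.95% that fell and 17.9% called in all. Stfa3 was not called. In those 6 genes the groups did not overlap, against 18.1% of all tested genes with every PGRN KO library on top, 19.6% with every one below and 37.7% either way. The median log2 fold change over the members was 0.81, and over all tested genes 0.0026. The 3 members with a log2 fold change of at least 1 were Stfa2, BC100530 and Stfa1, against 0.966% of tested genes that rose that far. Because the members were chosen with earlier results known, these contrasts with all tested genes are a description and not a test. The background moved with scaling: 1175 genes were higher and 1473 lower with the authors' scaling, and 2149 higher and 934 lower with FPKM rescaled to plain totals. In such bulk libraries, a change in the number of cells that make a transcript and a change in RNA per cell cannot be told apart.

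**Figure D2:**
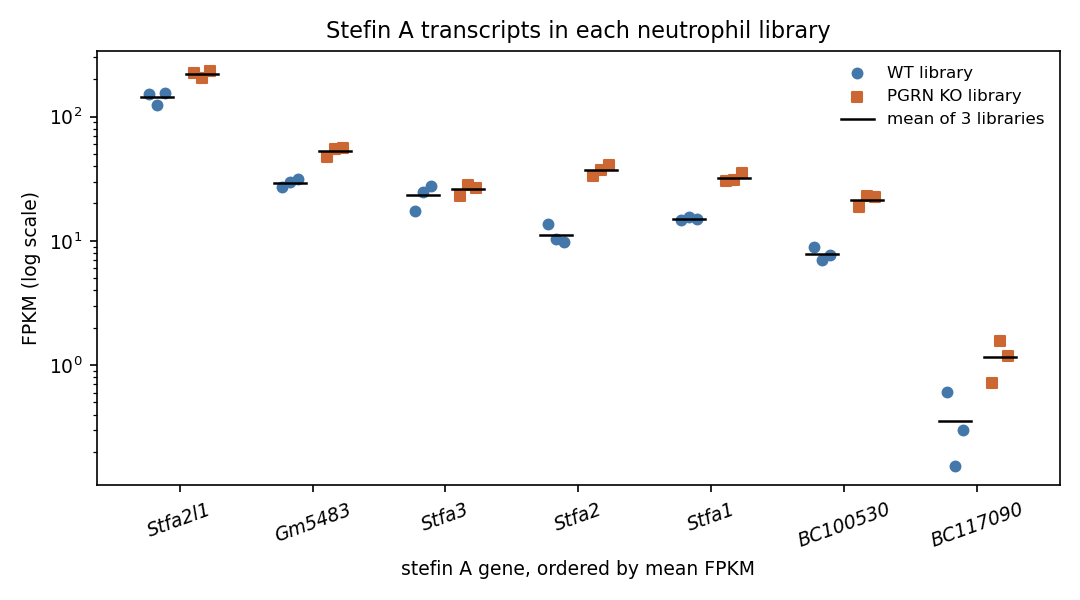
FPKM on a log axis of each stefin A gene, ordered by mean level, in the 3 WT libraries (blue circles) and the 3 PGRN KO libraries (orange squares), with bars at the means. The groups lie apart for every gene but Stfa3, where the WT libraries span 17.4 to 27.6 and the PGRN KO libraries 23.0 to 28.3. For BC117090 the gap is only that between 4 fragments in WT replicate 1 and 5 in PGRN KO replicate 4.

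Stfa2 rose the most in ratio among members with more than 1 FPKM in every library. Its 3 exons lie at chr16:36403992-36408457 on the minus strand (GRCm38). WT libraries had 13.6, 10.3 and 9.79 FPKM, and PGRN KO libraries 33.3, 37.2 and 40.9. The lowest PGRN KO library was thus more than double the highest WT library. Means were 11.2 ± 2.08 and 37.1 ± 3.81 (SD, n = 3), a ratio of 3.30, with a log2 fold change of 1.65 (SE 0.13, 95% interval 1.34 to 1.96, limma adjusted p = 0.00068). Ordered by fold change, Stfa2 was number 97 of the 14807 tested genes. The depth behind it was 269 fragments in all for WT and 977 for PGRN KO.

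Stfa2l1, the near copy of Stfa2, was the main stefin A transcript by FPKM and rose less. It lies at chr16:36156811-36161953 on the plus strand, far from Stfa2 in the cluster. WT libraries had 151.1, 124.6 and 155.5 FPKM, and PGRN KO libraries 225.0, 205.0 and 235.1. All PGRN KO libraries stood above all WT libraries, although WT replicate 2 was low for its group. The log2 fold change was 0.63 (SE 0.095, 95% interval 0.40 to 0.85, limma adjusted p = 0.00718), a ratio of 1.54, from 3062 WT and 5179 PGRN KO fragments. By mean level Stfa2l1 was number 261 of all genes.

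Relative to its near copy, Stfa2 was higher in every PGRN KO library. The ratio of Stfa2 to Stfa2l1 FPKM was 0.0902, 0.0827 and 0.0630 in WT libraries and 0.148, 0.181 and 0.174 in PGRN KO libraries. No PGRN KO library reached down to a WT library, and the difference was 1.10 on the log2 scale. The exact permutation test (two-sided) gave p = 0.1, which is the smallest that 3 libraries against 3 allow, and 0.2 after adjustment over the 6 ratios to Stfa2l1. The ratios of Stfa1 and BC100530 to Stfa2l1 were also higher in all PGRN KO libraries, by 0.46 and 0.82 on the log2 scale (exact permutation p = 0.1 and adjusted 0.2 for each). Of 9248 genes at or above 1 FPKM on average, 1.72% had a ratio to Stfa2l1 that was higher in every PGRN KO library, 78.8% one that was lower and 80.5% either. For Gm5483, Stfa3 and BC117090 this ratio overlapped between genotypes.

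Stfa1 is at chr16:36276951-36285373 on the plus strand. It had 14.8, 15.5 and 14.97 FPKM in WT libraries and 30.3, 30.9 and 35.0 in PGRN KO libraries. The WT libraries were nearly equal and the PGRN KO libraries all about double. The means of 15.1 ± 0.356 and 32.0 ± 2.55 (SD, n = 3) gave a log2 fold change of 1.04 (SE 0.063, 95% interval 0.89 to 1.19, limma adjusted p = 0.000294), from 543 and 1270 fragments.

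BC100530, whose coding sequence is nearest to that of Stfa1, lies at chr16:36359382-36367748 on the minus strand. WT libraries had 8.87, 6.98 and 7.69 FPKM, and PGRN KO libraries 18.8, 23.1 and 22.6. Again the groups did not overlap, and the log2 fold change was 1.35 (SE 0.11, 95% interval 1.09 to 1.60, limma adjusted p = 0.00068), a ratio of 2.74. The ratio of Stfa1 to BC100530 was 1.66, 2.21 and 1.95 in WT libraries and 1.61, 1.34 and 1.55 in PGRN KO libraries, so the ratio was lower in every PGRN KO library (exact permutation p = 0.1, the smallest possible, not adjusted). BC100530 overlaps the antisense gene Gm15845 at one end. Gm15845 had a mean of 0.0641 FPKM, and whether the counting used strand is not stated.

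Gm5483, the second most abundant member by FPKM, is next to Stfa2l1 at chr16:36184212-36188111 on the plus strand. It had 27.1, 29.9 and 31.4 FPKM in WT libraries and 47.3, 54.9 and 55.4 in PGRN KO libraries. The groups lay well apart, with a log2 fold change of 0.81 (SE 0.081, 95% interval 0.62 to 1.00, limma adjusted p = 0.00159) and a ratio of 1.78. Its 2788 WT and 5457 PGRN KO fragments were close in number to those of Stfa2l1, but were divided by a length of 1862 bases against 419. That length includes a transcript with a retained intron, so the order of these genes by level depends on the length used.

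BC117090 was barely detected. It lies at chr16:36321665-36334332 on the minus strand, between Stfa1 and BC100530. WT libraries had 0.609, 0.155 and 0.302 FPKM, from 4, 1 and 2 fragments, and PGRN KO libraries 0.724, 1.57 and 1.18, from 5, 11 and 9. The groups did not overlap, but by 1 fragment. Its log2 fold change was 0.67 (SE 0.18, 95% interval 0.24 to 1.09, limma adjusted p = 0.0457). The call was lost without WT replicate 1, 2 or 3 or PGRN KO replicate 5 or 6, at log2 fold changes of 0.53 to 0.80, and it was made in 7 of the 15 fits that tested it.

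Stfa3, the last gene of the cluster at chr16:36450537-36455392 on the minus strand, was the exception. WT libraries had 17.4, 24.9 and 27.6 FPKM, and PGRN KO libraries 23.0, 28.3 and 26.4. All PGRN KO libraries but one lay within the WT range. The means were 23.3 ± 5.28 and 25.9 ± 2.71 (SD, n = 3), and the log2 fold change was 0.17 (SE 0.17, 95% interval -0.23 to 0.56, limma adjusted p = 0.547). The interval takes in no change and a rise of up to 0.56, which is below the estimates for the 6 members that rose. It overlaps the intervals of Stfa2l1 (0.40 to 0.85) and BC117090 (0.24 to 1.09), so Stfa3 is not set apart from those 2 genes. WT replicate 1 was the lowest library, and without it the log2 fold change was -0.02. Stfa3 was called in none of 16 fits, while Stfa1, Stfa2, Stfa2l1, BC100530 and Gm5483 were called higher in all 16.

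The order of the members by FPKM shifted with genotype. In WT libraries Stfa3 stood above Stfa2 in 3 of 3, and in PGRN KO libraries in 0 of 3. The ratio of Stfa2 to Stfa3 was 0.782, 0.414 and 0.354 in WT libraries against 1.45, 1.31 and 1.55 in PGRN KO, which is a difference of 1.56 on the log2 scale (exact permutation p = 0.1, the smallest possible, not adjusted). These genes have the highest and the lowest log2 fold change of the members, so this p adds no independent support. Stfa2 was below Stfa1 in all 3 WT libraries and above it in all 3 PGRN KO libraries, where the ranges of both genes overlapped. This crossing depends on the lengths used, 471 bases for Stfa2 and 710 for Stfa1. In fragments, Stfa2 was below Stfa1 in every library, with 280, 318 and 379 against 384, 398 and 488 in PGRN KO. By FPKM, Stfa2l1 was first and BC117090 last in every library. Gm5483 was above Stfa3 in every library, but their FPKM ranges overlapped in WT. In fragments, Gm5483 was above Stfa2l1 in WT replicate 2 (929 against 871). The same held in PGRN KO replicates 5 (1856 against 1560) and 6 (2029 against 1936).

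Shares of the summed FPKM moved accordingly. Stfa2l1 made up 64.7%, 58.7% and 62.9% in WT libraries and 59.5%, 53.8% and 56.4% in PGRN KO libraries, which overlapped. Stfa2 went from 4.88% ± 0.938 to 9.46% ± 0.574 (SD, n = 3), BC100530 from 3.40% ± 0.358 to 5.48% ± 0.548 and Stfa1 from 6.55% ± 0.644 to 8.17% ± 0.201, none with an overlap between genotypes. Stfa3 went from 10.1% ± 2.31 to 6.62% ± 0.723, where the lowest WT library, at 7.47%, stood just above the highest PGRN KO library, at 7.44%. Without Stfa2l1, the summed FPKM was 87.3 ± 4.69 in WT and 170.3 ± 14.9 in PGRN KO, or 1.95 times as much.

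**Figure D3:**
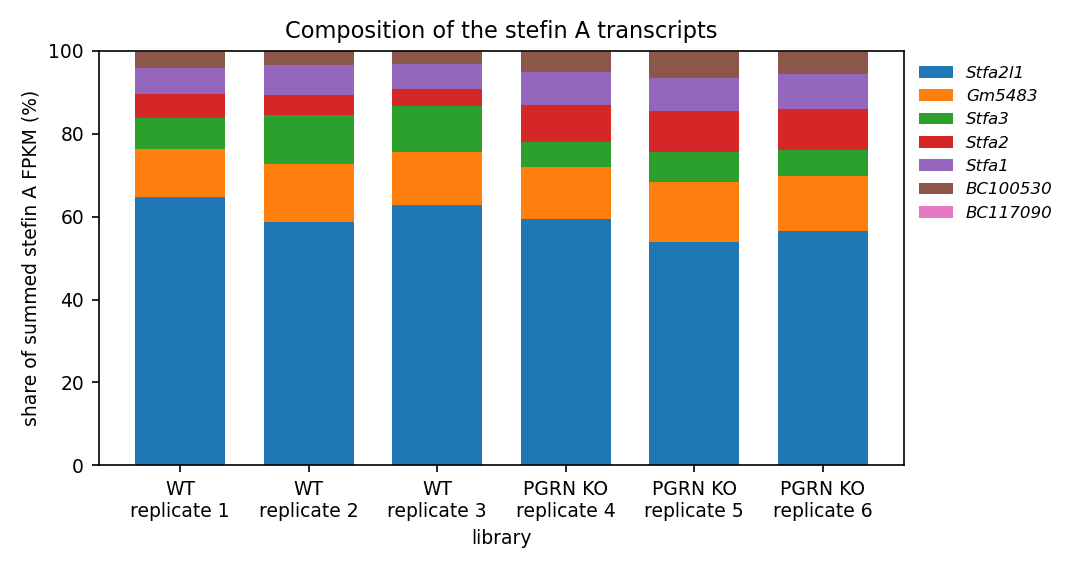
Share of the summed stefin A FPKM (%) taken by each member in each library, as stacked bars that add to 100%. Stfa2l1 holds 53.8% to 64.7% of every bar, the Stfa2 segment is wider in the PGRN KO libraries and the Stfa3 segment is narrower.

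The genes around the members were read next. Between Stfa2l1 and Stfa3, the outermost members, lie 22 other genes, of which 6 were tested and 2 had at least 1 FPKM on average. Both are further stefin A relatives. 2010005H15Rik, called Csta2 in RefSeq and 96.9% identical to Gm5483 in coding sequence, had 3.41, 3.66 and 3.75 FPKM in WT libraries against 10.1, 11.4 and 10.3 in PGRN KO libraries. It rose with no overlap (log2 fold change 1.33, SE 0.065, limma adjusted p = 0.000138). Its RefSeq promoter (chr16:36221312-36221611) held none of the 4 stretches that the members share. That window lies at the far start of a gene with 5 exons, at chr16:36221468-36257444, while each member has 3 exons. It may therefore not be the counterpart of the members' promoters.

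Gm5416, called Csta3 in RefSeq, did not rise. It had 9.01, 9.38 and 8.94 FPKM in WT libraries against 7.81, 6.56 and 8.82 in PGRN KO libraries, so all PGRN KO libraries were slightly below WT, with a log2 fold change of -0.22 (SE 0.097, limma adjusted p = 0.175). Its loop codons differ from those of Stfa1 by G4T, and its promoter held 3 of the 4 shared stretches, all but AGAGGAGGAG. The members that rose thus lay on both sides of a relative that was not called.

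Among the 5 tested genes on each flank, 1 rose and 2 fell. Fam162a, a mitochondrial protein gene, went from 218.3 ± 8.58 to 287.7 ± 13.7 FPKM (log2 fold change 0.40, limma adjusted p = 0.004). Cd86, a costimulatory receptor, went from 5.66 ± 0.0874 to 4.49 ± 0.198 (-0.28, adjusted p = 0.0164), and Slc15a2, a peptide transporter, from 2.71 ± 0.232 to 1.42 ± 0.232 (-0.62, adjusted p = 0.00728; SD, n = 3 for each).

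**Figure D4:**
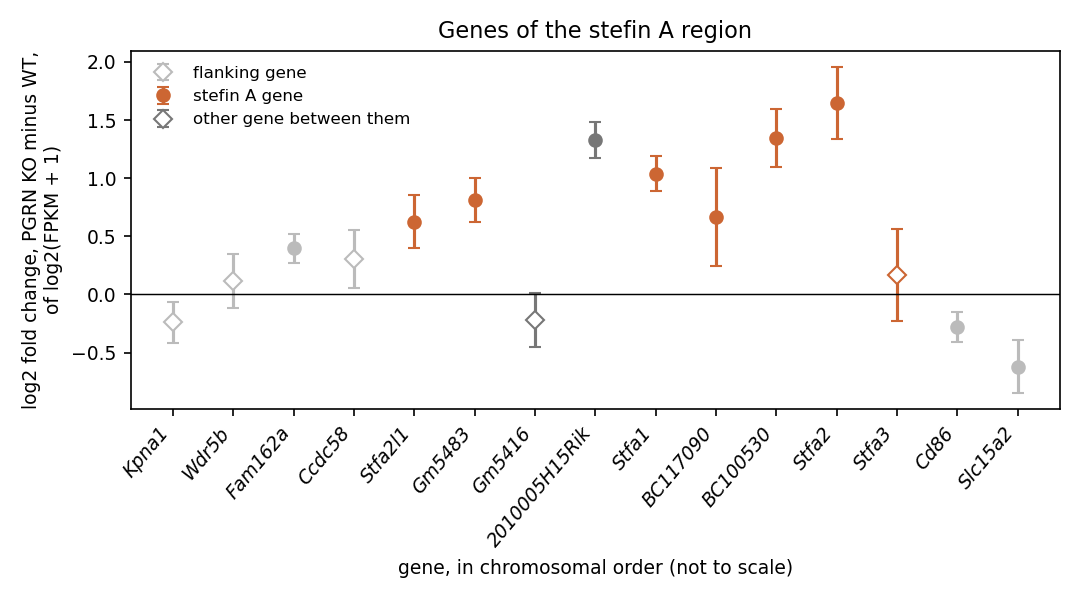
Log2 fold change (PGRN KO minus WT, of log2(FPKM + 1)) of genes averaging 1 FPKM or more in the stefin A region and of BC117090, in chromosomal order and not to scale, with 95% intervals. Stefin A genes are orange, other genes between them dark grey and flanking genes light grey, filled circles passed an adjusted p under 0.05 and open diamonds did not. Stfa2 is highest at 1.65, and Gm5416 and Stfa3 are the genes of the cluster whose intervals take in 0.

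Other cystatins were read beside the stefin A genes. Csta1, a further stefin A relative just outside the cluster, had 1 fragment in WT replicate 3 and 0 in the other libraries. Of a list of 10 cystatins outside the stefin A family, 3 were expressed enough to test, and 6 were at 0 in all libraries. Stefin B is the other cytosolic stefin and was by far the more abundant transcript. It had 1335, 1286 and 1219 FPKM in WT libraries against 994, 1010.3 and 1023 in PGRN KO libraries, and so fell as the stefin A genes rose (log2 fold change -0.34, limma adjusted p = 0.0048).

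Of the secreted or endosomal cystatins, both tested genes rose. Cst7, which encodes cystatin F, an inhibitor of cathepsin C in immune cells, had 35.0, 31.6 and 35.1 FPKM in WT libraries against 56.5, 56.0 and 55.6 in PGRN KO libraries (log2 fold change 0.71, limma adjusted p = 0.000511). Cst3, which encodes the secreted cystatin C, went from 115.4 ± 2.58 to 131.9 ± 5.57 FPKM (0.19, adjusted p = 0.0314, SD, n = 3). Cst7 also had the profile nearest to that of the summed stefin A level among 9243 genes, with a root mean square difference of 0.0616 on the centred log2 scale over 6 libraries. Next came Rpsa at 0.0633, Rpl10a at 0.0819, Prss16 at 0.0846 and Gpx1 at 0.0861. Prss16 had means of only 0.795 FPKM in WT and 2.23 in PGRN KO, where this scale understates the change. For comparison, Stfa2l1 was at 0.0894, Gm5483 at 0.101 and Stfa2 at 0.471 from the sum that contains them.

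Among the cysteine cathepsins, the kind of protease that stefins inhibit, some fell and none rose. Of 10 cathepsins, 8 were tested, 5 fell and 3 were not called, with a median log2 fold change of -0.38, and 4 to 6 fell under the other scalings. Ctsb, a lysosomal endopeptidase, had 807.1, 787.9 and 810.8 FPKM in WT libraries and 585.5, 593.3 and 645.2 in knockout libraries (log2 fold change -0.40, limma adjusted p = 0.00332). Ctsz, a carboxypeptidase, went from 806.2 ± 42.4 to 624.8 ± 24.7 (-0.37, adjusted p = 0.00659). Ctss, which trims the class II invariant chain, went from 335.0 ± 6.63 to 254.8 ± 15.5 (-0.40, adjusted p = 0.00431).

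Ctsh and Ctsk also fell. Ctsh, an aminopeptidase, went from 33.9 ± 1.00 to 23.5 ± 1.53 FPKM (-0.51, adjusted p = 0.0023), and Ctsk, known for collagen breakdown in bone, from 7.14 ± 0.373 to 3.61 ± 0.630 (-0.83, adjusted p = 0.004; SD, n = 3 for each). Ctsc, Ctsl and Ctso were not called. Ctsc had 17.8 ± 1.05 and 15.4 ± 1.44 FPKM, Ctsl 18.9 ± 0.741 and 19.3 ± 0.556, and Ctso 0.903 ± 0.215 and 0.972 ± 0.183.

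Inhibitors of other protease classes were mixed. Of 21 genes 15 were tested, 4 rose and 2 fell, with a median of 0.13. Slpi, a secreted inhibitor of neutrophil elastase, went from 1221 ± 25.3 to 953.7 ± 30.2 FPKM (log2 fold change -0.36, limma adjusted p = 0.00302), and Wfdc21 from 802.5 ± 25.3 to 1019 ± 119 (0.34, adjusted p = 0.0399). The called gene with the largest change was Spint2, a Kunitz inhibitor, from 3.58 ± 0.291 to 6.10 ± 0.671 (0.63, adjusted p = 0.00548; SD, n = 3 for each). Serpinb1a and Serpinb2 also rose.

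Genes of neutrophil maturation moved beside the stefin A genes in part. All 5 genes of the primary granule list, a set transcribed around the promyelocyte stage, rose, with a median log2 fold change of 2.31. The list includes Ms4a3, which does not encode a granule protein and rose the least of them (1.14). The FPKM of the 5 genes summed to between 128.7 and 143.8 in WT libraries and between 608.7 and 670.4 in PGRN KO libraries. Ctsg, which encodes cathepsin G, went from 13.8 ± 1.76 to 105.4 ± 4.06 FPKM (2.85), Elane, neutrophil elastase, from 59.5 ± 3.27 to 256.2 ± 9.32 (2.09), and Prtn3, proteinase 3, from 37.6 ± 2.25 to 191.6 ± 15.1 (2.32; SD, n = 3 for each).

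Genes of later stages were mixed. Of 9 secondary granule genes 2 rose and 1 fell, with a median of 0.064 (4 rose and none fell with quantile normalization). Ngp had 14226 ± 273 and 14907 ± 1004 FPKM and was not called, nor was Lcn2, with 4864 ± 25.3 and 4525 ± 118 (log2 fold change -0.10, but 0.016 with plain totals and 0.11 with quantile normalization). Pglyrp1, a peptidoglycan recognition protein, rose from 308.7 ± 20.7 to 473.1 ± 28.9 (log2 fold change 0.61, limma adjusted p = 0.00219), Cd177 rose by 0.23, and Mmp8, a collagenase, went from 94.8 ± 3.57 to 69.5 ± 11.4 (-0.45, adjusted p = 0.0365). Of 10 mature neutrophil genes 2 rose and 1 fell, with a median of 0.10 (5 rose and none fell with plain totals). S100a9, the most abundant of them, had 31333 ± 1130 and 36371 ± 3050 FPKM (SD, n = 3) and was not called, nor was S100a8, with 17949 ± 878 and 16846 ± 1156 (-0.09, but 0.028 with plain totals). Mmp9 rose by 0.25 and Mmp25 by 0.24, and Csf3r, the receptor for granulocyte colony-stimulating factor, had a log2 fold change of -0.16. Ly6g, the marker of the bead isolation, had 49.9 ± 2.63 and 45.6 ± 6.79 FPKM. The part of maturation stage in the stefin A difference was not tested.

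**Figure D5:**
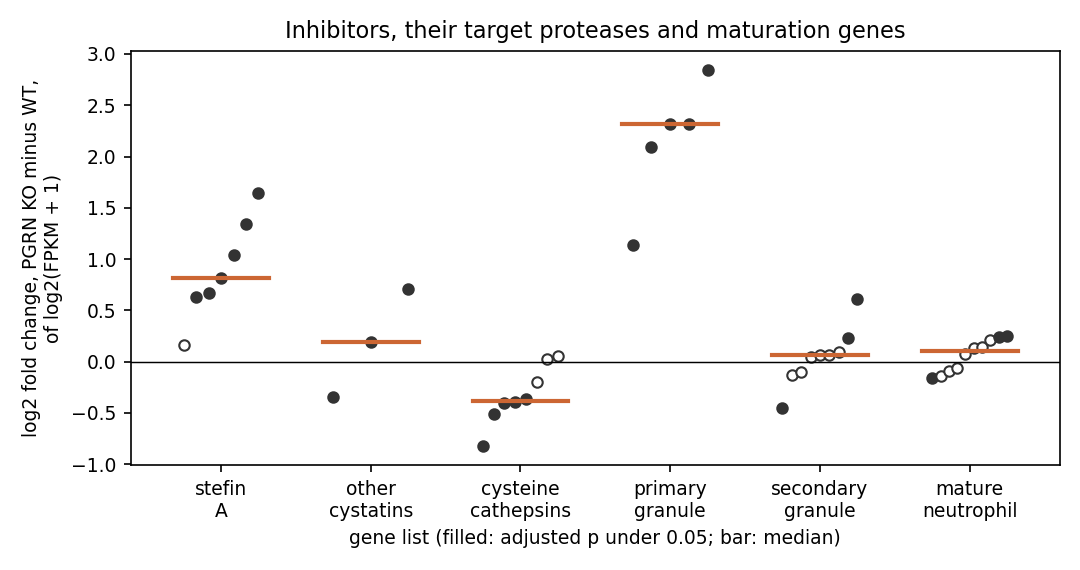
Log2 fold change (PGRN KO minus WT, of log2(FPKM + 1)) of each tested gene of 6 lists, filled where the adjusted p was under 0.05, with a bar at each list's median. Stefin A genes have a median of 0.81, cysteine cathepsins of -0.38 and the primary granule list, which includes Ms4a3, of 2.31.

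Markers of other cells in the bead fraction were given beside these values. Keratinocytes, which also express stefin A, were not seen, with Krt1, Krt5 and Krt14 at 0 and a summed level of at most 0.0552 FPKM over 4 genes, all of it Krt10. B and plasma cell genes rose in 4 of 4 tested, from summed levels between 430.2 and 444.7 in WT to between 2162 and 2455 in PGRN KO, almost all of it Igkc and Jchain. Basophil and mast cell genes rose in 4 of 5, from sums of 2.01 to 2.44 to sums of 10.9 to 12.4, with most in Prss34 (1.42 ± 0.209 and 6.76 ± 0.971 FPKM) and Mcpt8 (0.512 ± 0.176 and 3.40 ± 0.239). Erythroid genes rose in 3 of 4 tested, from sums of 1.04 to 3.09 to sums of 5.43 to 6.49, with most in Hba-a1 (0.873 ± 0.523 and 2.77 ± 0.143) and Hbb-bs (0.795 ± 0.393 and 2.13 ± 0.430). Of 6 monocyte genes 3 fell and 1 rose, with sums of 494.8 to 504.6 and 515.9 to 660.7, most of which was Ly6c2 (401.1 ± 4.58 and 521.2 ± 71.9 FPKM). Csf1r, the next in level, had 45.6 ± 1.25 and 40.9 ± 2.51, and Ms4a6c, which fell the most, 19.3 ± 1.43 and 8.47 ± 0.662 (SD, n = 3). T and NK cell genes were near 0, mostly Cd3d with Ncr1 next, with Cd3e and Cd3g at 0 and summed levels between 0.248 and 0.779 over all libraries. The part of these cells in the stefin A difference was not tested. The depth was 17290604 to 17799798 fragments on genes in WT libraries and 17087344 to 18821091 in PGRN KO libraries.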

How the data were processed

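Neutrophil RNA from 3 WT and 3 PGRN KO cultures was sequenced in pairs of 150-base reads after poly-T selection. The authors deposited FPKM values. The submitters' processing notes name CASAVA, HISAT2 2.0.5, featureCounts 1.5.0-p3 and DESeq2 1.20.0 on mm10 (GRCm38), while the study's methods name HTSeq for the counting, so the counter is uncertain. The deposited gene length, in bases, was used as given. The ratio of Candida to neutrophils also differs between the labels and the methods.

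The deposited FPKM values, times gene length, were whole multiples of 1 fragment within 0.05, which gave the depth. The sum of fragments differed from the library size that the authors divided by, on average 1.04 times it in WT and 0.954 times it in PGRN KO. Replicates differed by more than sampling noise (chi-square per degree of freedom 2.83 to 11.7). Of 54532 genes, 54409 had an ID in GENCODE M21 and 53499 of those the same position.

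From FPKM, log2(FPKM + 1) of 14807 genes with a mean of at least 0.1 was compared with limma 3.58.1 (eBayes with trend, two-sided, Benjamini-Hochberg) in R 4.3.3. Python 3.11.15, numpy 2.4.6, pandas 2.3.3, scipy 1.17.1 and matplotlib 3.10.9 served for the rest. On simulated data for this comparison over 14807 genes, 134 of 200 changed genes were called, 109 of 124 at a mean FPKM of at least 1, with 9 false calls among 143. Ratios between members were tested by exact permutation over libraries, for which 0.1 is the smallest p.

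The members and the gene lists were chosen with earlier results of these data known. Named were the members, Grn, genes between the members with a mean FPKM of at least 1, called flanking genes, every called gene of the other cystatins and cathepsins with the 3 most abundant, the 2 most abundant genes and the largest called change of each other list (for keratinocytes, the 1 gene above 0), and the 5 nearest profiles. Other genes named for a list's count were chosen after their values were seen. Coding stretches came from GENCODE transcripts and promoters from RefSeq. Proteins were not analysed here. Pseudocount, filters, scaling, voom, the variance model and each library left out were tried as alternatives.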

Additional observations from a re-analysis of the deposited data

How the results depend on the processing

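The 6 called members and the summed level kept their direction under all alternatives run. Stfa1, Stfa2, Stfa2l1, BC100530 and Gm5483 stayed past the threshold in each, with log2 fold changes of 1.56 to 1.78 for Stfa2 and 0.53 to 0.69 for Stfa2l1 when 1 library was left out. The number of members called was 5 to 6. BC117090 lost its call with a filter of any FPKM above 0 (0.67), with quantile normalization (0.65) and with voom (1.59, on its own scale), and was not tested with a mean FPKM of at least 1. Stfa3 ranged from -0.022 (without WT replicate 1) to 0.30 with 1 library left out, and was not called in any. The summed ratio was 1.63 to 1.76 with 1 library left out, and 1.95 over the members other than Stfa2l1, an alternative chosen after seeing the data. Grn was at -7.09 to -6.82 with 1 library left out.

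Genes called over the whole table numbered 2648, and 1322 to 2161 with 1 library left out, with the lowest counts of 1612, 1335, 1662 and 1322 without WT replicates 1, 2 and 3 and PGRN KO replicate 5. Other settings gave 2037 (any FPKM above 0) to 3620 (voom, 1689 higher and 1931 lower). A DESeq2 or edgeR fit on the recovered fragments was not run. No paired analysis was possible because WT and PGRN KO share no replicate number. Depth limits BC117090, with 7 and 25 fragments per genotype, and 3 libraries per genotype limit the rest.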
